A study of Mus musculus with 6 samples.

Results

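The fibroblast growth factor (FGF) ligands and receptors of the early kidney were examined in cells sorted from mouse embryos with and without functional Pax2, a transcription factor gene of the intermediate mesoderm, the embryonic tissue that forms the kidneys and gonads. The set comprised 10 genes, the ligands Fgf7, Fgf8, Fgf9, Fgf10 and Fgf20 and the receptors Fgfr1, Fgfr2, Fgfr3, Fgfr4 and Fgfrl1. They were chosen by name, and all array probe sets that the platform annotation assigns to exactly 1 of these symbols were taken, which gave 22 of the 45101 probe sets, 7 for ligands and 15 for receptors. With 1 probe set per gene, the 10 genes stood among 18194 measured genes.

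EGFP-positive cells were isolated by flow sorting from dissociated intermediate mesoderm at E11.5, and their RNA was hybridized to 6 one-colour Affymetrix arrays. The 3 samples of the control group are Pax2 heterozygotes, titled EGFP/+, and the other 3 are Pax2 nulls, titled EGFP/EGFP. Both groups thus carry EGFP, the nulls on both alleles, and no wild-type sample was compared. The values are on a log2 scale, so a difference of 1 is a doubling, and a value can be compared between arrays for the same probe set but not between genes.

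FGFs are secreted proteins that bind receptor tyrosine kinases together with heparan sulphate, and the activated receptor signals through adaptor proteins and the Ras-ERK cascade. In the embryonic kidney, ligands made by the mesenchyme act on the ureteric bud, the epithelial outgrowth of the nephric duct, while other ligands keep nephron progenitor cells alive and undifferentiated. Loss of Fgfr1 and Fgfr2 together from the metanephric mesenchyme is known to stop kidney formation.

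The median value of an array was 6.12 to 6.24, and arrays of the same genotype correlated at 0.976 to 0.991 over all probe sets. Whether the samples derive from different litters or embryos is not stated, and p-values therefore reflect the spread of these 6 samples, which can include technical spread. Precision is limited by the number of arrays. The genotype labels were not checked against Pax2, which is not analysed here. The signals of 18 hybridization control probe sets divided the arrays into 3 pairs, each with 1 array of either genotype. Heterozygote 1 was matched with null 3 (pair 1), heterozygote 2 with null 1 (pair 2) and heterozygote 3 with null 2 (pair 3). The pairs come from the values, not from the labels. Values blocked by pair are given for genes of the FGF set and of the FGF pathway lists whose call the block changed. They are also given for some other genes of the set and the lists. None of the 9 measured markers of nephric duct and none of the 10 of metanephric mesenchyme was dim, that is, under the 33rd percentile of all values (4.79) in both groups.

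Within the FGF set, Fgf8, Fgf9, Fgf10 and Fgf20 were each lower in every null array than in any heterozygote array, which was so for 7.16% of all genes, whereas Fgf7 and 4 of the 5 receptors overlapped between genotypes. The changes ran from -1.14 for Fgf10 to -0.01 for Fgf7 among ligands (median -0.53) and from -0.22 for Fgfr4 to 0.41 for Fgfr3 among receptors (median -0.11), against a median of -0.02 over all genes. None of the 10 genes passed limma with Benjamini-Hochberg adjustment over all genes (adjusted p under 0.05), a threshold that 1.39% of all genes passed (0.808% higher and 0.583% lower in null). At an unadjusted p under 0.05 there were 5 of the 10, compared with 9.73% of all genes. With the array pair as a block, Fgf9 and Fgf10 fell, while 4.53% of all genes passed (2.65% higher and 1.88% lower in null).

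Marker genes of several cell types also differed between the groups. All 9 measured nephric duct markers had a negative change, and 4 fell in limma over all genes (0.583% of all genes fell and 0.808% rose). Their summed signal (log2) ran from 12.71 to 12.98 in heterozygotes and from 11.08 to 11.65 in nulls. Of 10 markers of metanephric mesenchyme, 9 were negative, and in limma 3 fell and 1 rose. Their sums overlapped (13.28 to 13.92 and 13.05 to 13.65), although the mean log2 values did not (9.85 to 10.40 and 9.42 to 9.69). All 12 stromal markers were positive (sums of 12.46 to 12.94 and 13.80 to 14.02), as were all 9 macrophage markers (9.33 to 10.38 and 10.43 to 11.72, Ptprc dim in both groups). In limma 6 stromal and 0 macrophage markers rose. Of 10 epithelial markers (endodermal, surface and urothelial), only 6 were positive, and 3 rose in limma over all genes. Their mean log2 value ran from 6.64 to 6.99 in heterozygotes and from 7.74 to 8.14 in nulls. The sums overlapped (12.61 to 13.24 and 12.86 to 13.16, Foxa1 and Krt14 dim). Limb bud and lateral plate markers were positive in 5 of 6 (10.33 to 10.56 and 10.98 to 11.03; Tbx4 and Tbx5 dim). Of the 6 neural markers 4 were positive, with sums of 8.82 to 9.09 and 9.10 to 9.37 (Sox2 and Neurog2 dim). Of the 6 somite and muscle markers 3 were positive, with sums of 10.30 to 10.42 and 9.93 to 10.14 (Myf5, Myog and Pax3 dim). The endothelial (8.75 to 9.14 and 8.88 to 9.25) and erythroid sums (10.87 to 12.48 and 11.76 to 12.58) overlapped. In limma 1 neural marker rose and 1 fell, and 0 limb bud, somite and muscle, endothelial or erythroid markers passed. The part of these markers in the values of the FGF genes was not tested. In sorted bulk samples, fewer cells of a type and less RNA per cell cannot be told apart.

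Fgf10, a mesenchymal ligand that signals to the bud epithelium through the epithelial form of Fgfr2, showed the largest difference of the set. Its log2 values were 7.75, 8.17 and 8.69 in heterozygotes 1 to 3 and 6.76, 7.33 and 7.09 in nulls 1 to 3. The highest null array thus stayed below the lowest heterozygote array. The means were 8.20 ± 0.47 and 7.06 ± 0.29 (SD, n = 3 each), a change of -1.14 ± 0.26 (SE; 95% interval -1.75 to -0.53), or 2.21-fold lower. This did not pass in limma over all genes (adjusted p = 0.110), but it did when blocked by pair (adjusted p = 0.0310). The difference within a pair was -0.65 in pair 1, -1.42 in pair 2 and -1.35 in pair 3. A single probe set represents Fgf10. Without heterozygote 1, the lowest of the controls, the change was -1.37 and passed in limma (adjusted p = 0.0417). Of the 6 fits that left out 1 array, this was the only 1 to pass (limma, adjusted p up to 0.311, changes of -1.37 to -0.90). Without moderation of the variances Fgf10 did not pass (linear model, adjusted p = 0.497).

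Fgf9, a ligand that together with Fgf20 maintains nephron progenitors, had values of 6.79, 7.24 and 6.74 in heterozygotes and 6.29, 6.08 and 6.03 in nulls. All null arrays lay below all heterozygote arrays, with the gap between heterozygote 3 and null 1. From 6.92 ± 0.28 to 6.13 ± 0.14 (SD, n = 3 each), the change was -0.79 ± 0.19 (SE; 95% interval -1.22 to -0.36). It did not pass in limma over all genes (adjusted p = 0.115) but did with the block (adjusted p = 0.0240), and the 3 pairs gave -0.76, -0.96 and -0.66. The other Fgf9 probe set had a change of -0.59 ± 0.26, and its arrays overlapped because heterozygote 3 (5.89) was below null 2 (6.11).

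**Figure D1:**
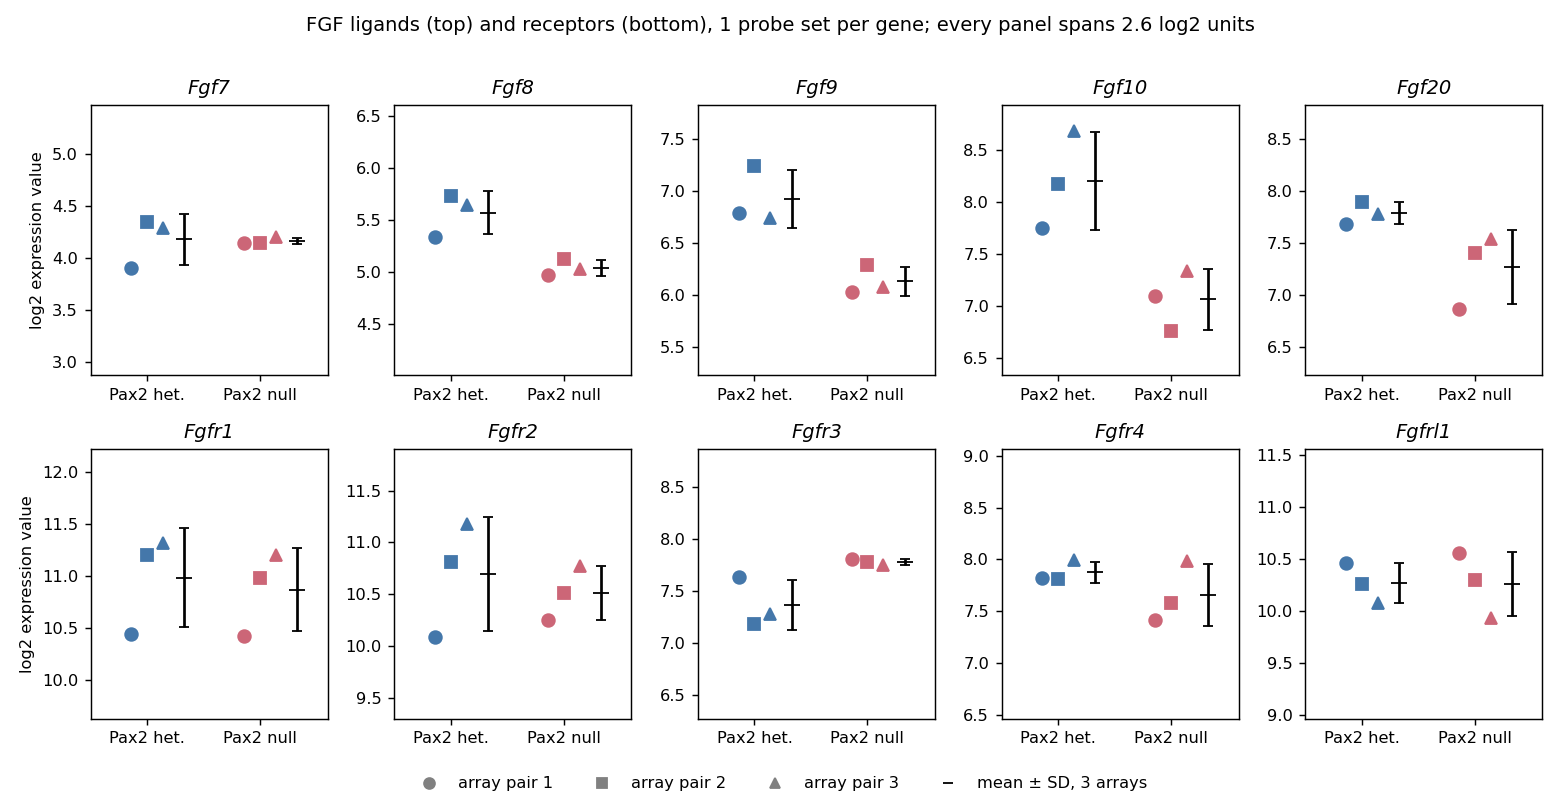
Log2 expression values of the 10 FGF genes in each array, at the probe set with the highest mean of its gene; symbols mark the array pair, blue is heterozygote, red is null, and black bars give mean ± SD over 3 arrays. Fgf8, Fgf9, Fgf10 and Fgf20 have no overlap between genotypes with null lower, while Fgfr1 and Fgfr2 are lowest in pair 1 in both genotypes.

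Fgf20, the progenitor ligand related to Fgf9, had values of 7.69, 7.90 and 7.78 in heterozygotes and 7.40, 7.54 and 6.86 in nulls. Null 3 was well below the other nulls, and the rest of the gap was small, null 2 lying 0.15 under heterozygote 1. The change was -0.52 ± 0.21 (SE; 95% interval -0.99 to -0.04; limma, adjusted p = 0.442 and 0.126 with the block). Without null 3 it shrank to -0.32.

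Fgf8, which developing nephrons need for survival, read 5.34, 5.73 and 5.65 in heterozygotes and 5.12, 5.03 and 4.97 in nulls. The nulls were close together and all below the heterozygotes. The change of -0.53 ± 0.16 (SE; 95% interval -0.91 to -0.15) did not pass in limma (adjusted p = 0.246, and 0.0671 with the block).

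Fgf7, the ligand closest to Fgf10 and likewise a ligand of epithelial Fgfr2, was dim in both groups. Its brighter probe set read 3.90, 4.34 and 4.29 in heterozygotes and 4.14, 4.20 and 4.14 in nulls, with the nulls inside the range of the heterozygotes. The change was -0.01 ± 0.17 (SE; 95% interval -0.41 to 0.38; limma, adjusted p = 0.996). The second probe set stood lower still, between 2.88 and 3.24 in the 6 arrays.

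The promoters of Fgf9 and Fgf10, the genes of the set with the smallest p-values, are shown with that of Fgf7, the dim relative of Fgf10. The sequences are the 250 bases before the annotated start, from RefSeq on GRCm38.p6, all on the plus strand, at chr13:118714449-118714698 for Fgf10, chr14:58072436-58072685 for Fgf9 and chr2:126034408-126034657 for Fgf7. Capitals mark a GC box, the letters GGGCGG read on either strand.
Fgf10: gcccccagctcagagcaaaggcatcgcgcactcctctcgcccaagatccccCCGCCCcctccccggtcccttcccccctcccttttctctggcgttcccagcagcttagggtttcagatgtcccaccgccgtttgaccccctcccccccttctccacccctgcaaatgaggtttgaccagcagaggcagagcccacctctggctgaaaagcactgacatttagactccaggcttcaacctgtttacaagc
Fgf9: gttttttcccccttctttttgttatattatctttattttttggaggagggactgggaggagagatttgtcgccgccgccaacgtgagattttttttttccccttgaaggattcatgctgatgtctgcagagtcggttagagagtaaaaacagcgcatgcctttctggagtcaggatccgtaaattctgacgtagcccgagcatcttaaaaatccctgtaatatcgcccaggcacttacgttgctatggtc
Fgf7: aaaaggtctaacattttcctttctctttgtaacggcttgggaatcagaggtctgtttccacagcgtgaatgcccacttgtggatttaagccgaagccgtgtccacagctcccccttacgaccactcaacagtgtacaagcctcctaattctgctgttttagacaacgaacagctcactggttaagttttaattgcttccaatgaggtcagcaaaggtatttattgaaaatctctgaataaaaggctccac

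The Fgf10 window was 61.2% G and C, against 44.8% for Fgf9, 43.6% for Fgf7 and a median of 52.4% over 32851 promoter windows. It held 1 GC box, 193 bases before the start, and those of Fgf9 and Fgf7 held none. Promoter windows were found for 7 of the 10 genes (not for Fgf8, Fgf20 and Fgfr1), 8 windows in all because Fgfr3 has 2. A GC box stood in 5 of these 8 and in 32.7% of all windows. The letters GTCACGC, a core of the site that the paired domain of Pax2, Pax5 and Pax8 binds, were searched on both strands and stood in 0 of the 8 and in 1.78% of all windows. The search covers only these letters in these windows.

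Fgfr1 and Fgfr2, the receptors of the metanephric mesenchyme and, for Fgfr2, of the bud epithelium, did not separate by genotype. Fgfr1 read 10.44, 11.20 and 11.32 in heterozygotes and 10.98, 11.20 and 10.43 in nulls. The lowest values were those of heterozygote 1 and null 3, the arrays of pair 1, which were almost equal, so the spread ran between pairs. The change was -0.11 ± 0.29 (SE; 95% interval -0.78 to 0.55; limma, adjusted p = 0.992), and within pairs it was -0.01, -0.22 and -0.12. Probe sets of Fgfr1 differed in this respect. A second one was not low in pair 1, its arrays did not overlap between genotypes, and its change was -0.31 ± 0.15 (SE; limma over all probe sets, adjusted p = 0.745).

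Fgfr2 read 10.09, 10.82 and 11.18 in heterozygotes and 10.51, 10.78 and 10.25 in nulls, again lowest in the arrays of pair 1. The change was -0.18 ± 0.29 (SE; 95% interval -0.84 to 0.48; limma, adjusted p = 0.984). A second bright probe set had values between 10.42 and 10.72 in all 6 arrays and a change of -0.11 ± 0.16. None of these probe sets is known here to be specific for the epithelial or the mesenchymal form of the receptor, so the forms were not told apart.

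Fgfr3 was the receptor with the largest difference and the one gene of the set that was higher in every null array than in any heterozygote array, as 6.49% of all genes were. Values were 7.63, 7.18 and 7.28 in heterozygotes and 7.77, 7.74 and 7.80 in nulls. The nulls lay within 0.06 of each other. The change was 0.41 ± 0.17 (SE; 95% interval 0.02 to 0.80) and did not pass in limma (adjusted p = 0.467, and 0.154 with the block). The second probe set had a change of 0.24 ± 0.22 with overlapping arrays.

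Fgfr4 and Fgfrl1, a receptor that lacks the kinase domain, complete the set. Fgfr4 read 7.82, 7.81 and 7.99 in heterozygotes and 7.58, 7.99 and 7.41 in nulls, null 2 reaching the highest heterozygote. Its change was -0.22 ± 0.19 (SE; 95% interval -0.65 to 0.22; limma, adjusted p = 0.909), and the other 4 probe sets had changes of -0.19 to -0.36. With 1 array left out, the change ran from -0.38 without null 2 to -0.092 without null 3. Fgfrl1 read 10.46, 10.26 and 10.08 in heterozygotes and 10.29, 9.93 and 10.55 in nulls, with full overlap. Its change was -0.01 ± 0.20 (SE; 95% interval -0.48 to 0.46; limma, adjusted p = 0.998). These intervals do not show that the receptors were equal, since a fall of 0.65 for Fgfr4 or 0.48 for Fgfrl1 lies inside them.

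**Figure D2:**
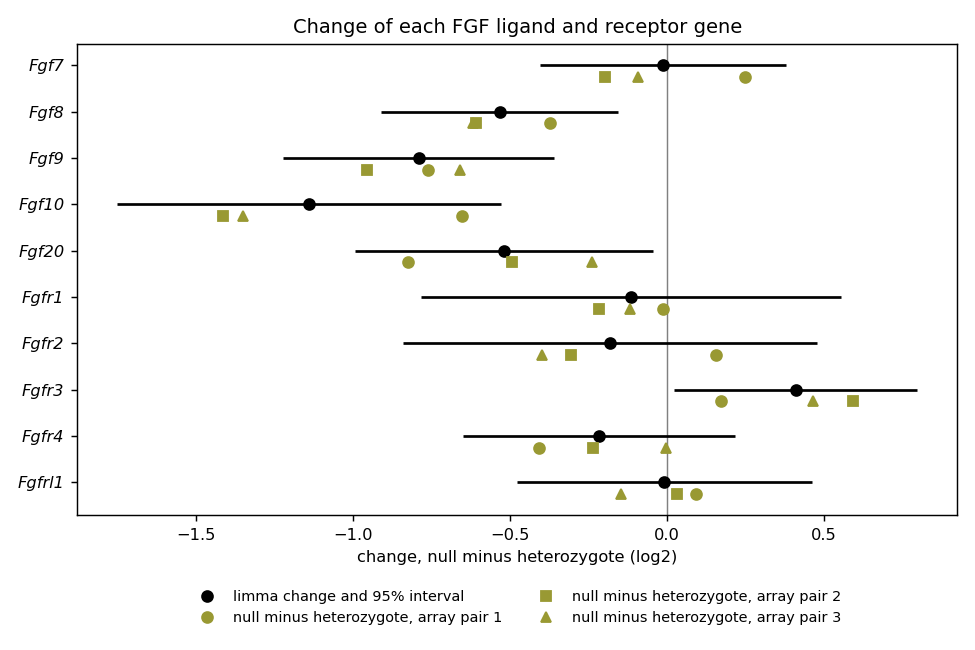
Change of each FGF gene, null minus heterozygote on the log2 scale; black points and lines give the limma estimate and its 95% interval, and the coloured symbols give the difference within each array pair. The intervals of Fgf8, Fgf9, Fgf10 and Fgf20 lie below 0 and that of Fgfr3 above it, before any adjustment for the number of genes tested.

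Over all 22 probe sets of the set, 18 had a negative and 4 a positive change. All 7 ligand probe sets were negative, 5 of them without overlap between genotypes. Of the 7, 2 were dim in both groups, both of Fgf7, and the dimmer of these is among the 5 without overlap. Of the 15 receptor probe sets, 11 were negative, and 1 was without overlap in each direction. Groups without overlap were found for 11.7% of all probe sets. When every probe set was tested singly, 0 of the 22 passed in limma (adjusted p of 0.172 or more, against 0.691% of all probe sets passing), and with the array pair as a block 0 passed as well, the smallest adjusted p being 0.0545 for Fgf9 (1.71% of all probe sets passed). The calls of Fgf9 and Fgf10 with the block therefore held with 1 probe set per gene and not when all probe sets were adjusted for.

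**Figure D3:**
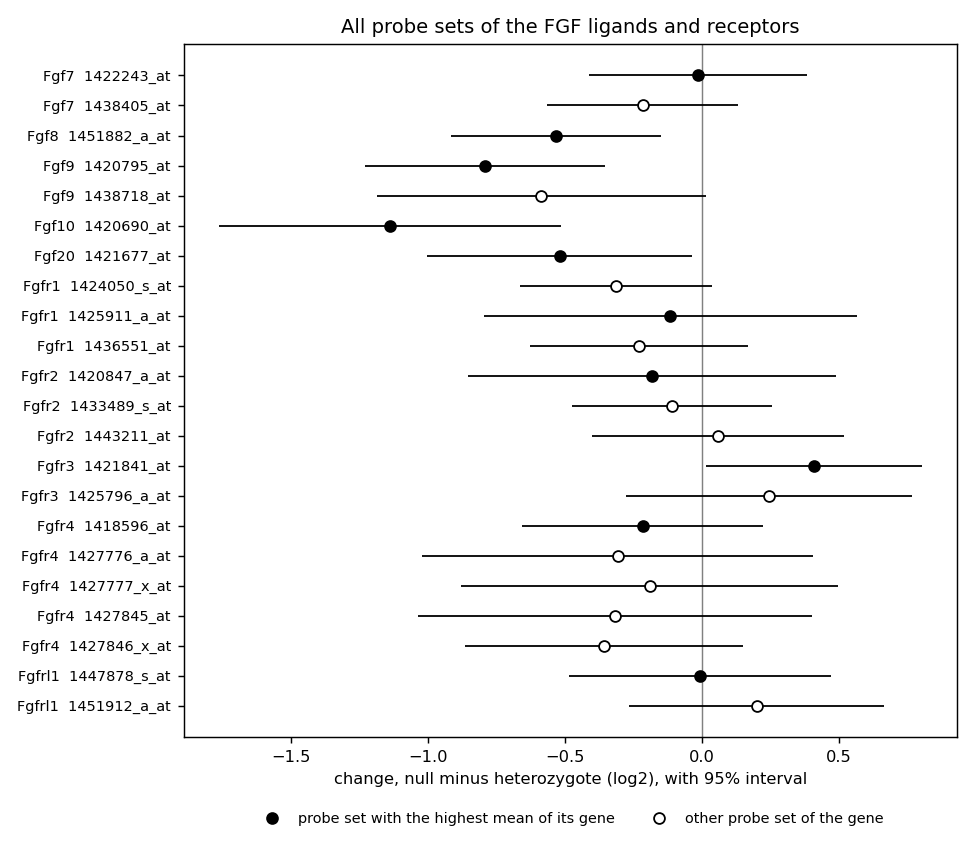
Change of all 22 probe sets of the FGF ligands and receptors, null minus heterozygote on the log2 scale, with 95% intervals from limma; filled points are the probe set with the highest mean of its gene. The ligand probe sets lie at or to the left of 0, and most receptor intervals include 0.

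Genes with the most similar profiles were sought by the root mean square difference over the 6 arrays after each gene was centred on its own mean. Fgf10 was closest to Spock2 (0.12 log2 units), Kcnmb2 (0.15) and Wnt7b (0.16). Fgf9 was closest to Clrn1 (0.08), Lrrc9 (0.10) and Rbfox1 (0.10). The measure covers 6 arrays and is a description.

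The remaining FGF family genes were mostly near 0 or dim. Of 17 other ligands 1 fell and 0 rose (0.583% and 0.808% of all genes). At an unadjusted p under 0.05 there were 4 of the 17 (9.73% of all genes). Arrays did not overlap for 2 genes higher and 2 lower in null (6.49% and 7.16% of all genes). Of the same 17, 8 were dim in both groups (4517 of all 18194 genes), and the median change of the 17 was 0.02. The gene that fell was Fgf12, which belongs to the FGF homologous factors, proteins that stay inside the cell and bind sodium channels. Its values were 7.92, 8.12 and 7.70 in heterozygotes and 6.25, 6.45 and 6.37 in nulls, the groups standing well apart. The change was -1.56 ± 0.17 (SE; limma, adjusted p = 0.00691), each of its 3 probe sets pointed down, and it passed with any 1 array left out but not without moderation of the variances (adjusted p = 0.192). Fgf11, another homologous factor, had a change of 1.07 ± 0.27 that passed with the pair block (limma, adjusted p = 0.0190) but not in the same fit without it (0.135). Without the block it passed with array weights (limma, adjusted p = 0.0353) and as the mean over probe sets (0.0322). It passed in 0 of the 6 fits that left out 1 array. Fgf5 had a change of 0.51 ± 0.17 at its brighter probe set (limma, adjusted p = 0.279). Its dimmer probe set read 3.48, 3.18 and 3.76 in heterozygotes and 4.96, 5.97 and 6.39 in nulls, a rise that passed when every probe set was tested (limma, adjusted p = 0.0399). The heterozygote arrays were all under the dim level of 4.79, so the size of that rise was not measured. Fgf1 stood at -0.41 ± 0.17 (limma, adjusted p = 0.467).

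Heparan sulphate core proteins and their modifying enzymes shape how FGFs reach their receptors. Of their 25 measured genes 2 fell and 1 rose in limma (0.583% and 0.808% of all genes), with a median change of 0.13. At an unadjusted p under 0.05 there were 6 of the 25 (9.73% of all genes). Arrays did not overlap for 4 genes higher and 4 lower in null (6.49% and 7.16% of all genes). Both genes that fell in limma encode 3-O-sulphotransferases, which add the rarest sulphate group to the chain. Hs3st3b1 read 8.92, 8.43 and 8.43 in heterozygotes and 6.89, 6.74 and 7.26 in nulls, a change of -1.63 ± 0.21 (SE; limma, adjusted p = 0.0125). Its other 3 probe sets had changes of -1.44, -0.36 and -0.29, all with overlapping arrays, and the mean over the 4 probe sets changed by -0.93. Hs3st3a1 read 5.78, 5.998 and 5.60 against 4.65, 4.94 and 4.75, a change of -1.01 ± 0.17 (SE; limma, adjusted p = 0.0318). The null mean of Hs3st3a1, 4.78, was under the dim level of 4.79, so the size of its fall is a limit. At these probe sets of both genes all nulls lay below all heterozygotes.

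The gene that rose was Gpc4, a glypican that carries heparan sulphate on the cell surface. It read 9.95, 9.51 and 9.35 in heterozygotes and 10.76, 10.62 and 10.70 in nulls, a change of 1.09 ± 0.19 (SE; limma, adjusted p = 0.0351). The core protein gene Sdc2 stood 0.98 ± 0.24 higher, short of the threshold (limma, adjusted p = 0.127). In fits that left out 1 array, Hs3st3b1 had a limma adjusted p of up to 0.0601 and was lost without heterozygote 3, null 1 or null 2. Hs3st3a1 was lost in all 6 such fits (0.0557 to 0.131), and Gpc4 in all but the one without heterozygote 1 (up to 0.145), as well as after median centring (0.0568) and with the mean over probe sets (0.0972). With every probe set as a unit, Gpc4 (limma, adjusted p = 0.0627) and Hs3st3a1 (0.0558) were lost. Without moderation all 3 were lost (adjusted p = 0.324 for Gpc4 and 0.271 for each of the sulphotransferase genes).

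The 7 measured co-receptor and binding protein genes had a median change of 0.05, and the 17 measured intracellular adaptors and kinases 0.03. In limma 0 genes of either list passed the threshold (1.39% of all genes). At an unadjusted p under 0.05 there were 3 and 0 of them (9.73% of all genes). Flrt3 and Flrt2, membrane proteins that bind FGF receptors, had changes of 1.03 ± 0.22 (limma, adjusted p = 0.0778) and 0.84 ± 0.24 (0.201), and both rose with the pair block (0.0233 and 0.0190). Fgfbp3, a secreted FGF carrier, had a change of -0.48 ± 0.18, and Klb, a co-receptor of endocrine FGFs, was dim (0.26 ± 0.18). The intracellular genes with the smallest p were Map2k1 (-0.28 ± 0.18), Cbl (-0.20 ± 0.15), Shc1 (0.25 ± 0.20) and Gab1 (0.27 ± 0.22). All 17 intracellular genes overlapped between genotypes, as did 15711 of all 18194 genes.

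Of 17 measured target and feedback genes of FGF and ERK signalling, 12 had a negative change and 7 were lower in every null array than in any heterozygote array (7.16% of all genes), with a median of -0.22. In limma without a block 0 passed, and 5 were at an unadjusted p under 0.05 (9.73% of all genes). With the pair block 5 fell (1.88% of all genes), namely Dusp6, Etv5, Dusp4, Myc and Etv4. Dusp4, a phosphatase that dampens ERK, read 9.11, 9.04 and 8.67 in heterozygotes and 7.79, 8.13 and 8.29 in nulls, or -0.87 ± 0.20 (limma, adjusted p = 0.104, and 0.0486 with the block). The growth regulator Myc read 10.89, 11.45 and 11.55 against 10.47, 10.59 and 9.99, or -0.94 ± 0.24 (limma, adjusted p = 0.139, and 0.0112 with the block). Dusp6 and Etv5 changed by -0.90 and -0.71 in the blocked fit (limma, adjusted p = 0.0230 and 0.0319). Etv4 overlapped between genotypes, with a change of -0.76 ± 0.42 without the block (SE, limma, adjusted p = 0.709). It passed with the block alone, where the SE was 0.12 (limma, adjusted p = 0.0335). Its change was -0.37 without null 3 and -1.12 without null 1. These genes also respond to other receptor tyrosine kinases, such as Ret.

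**Figure D4:**
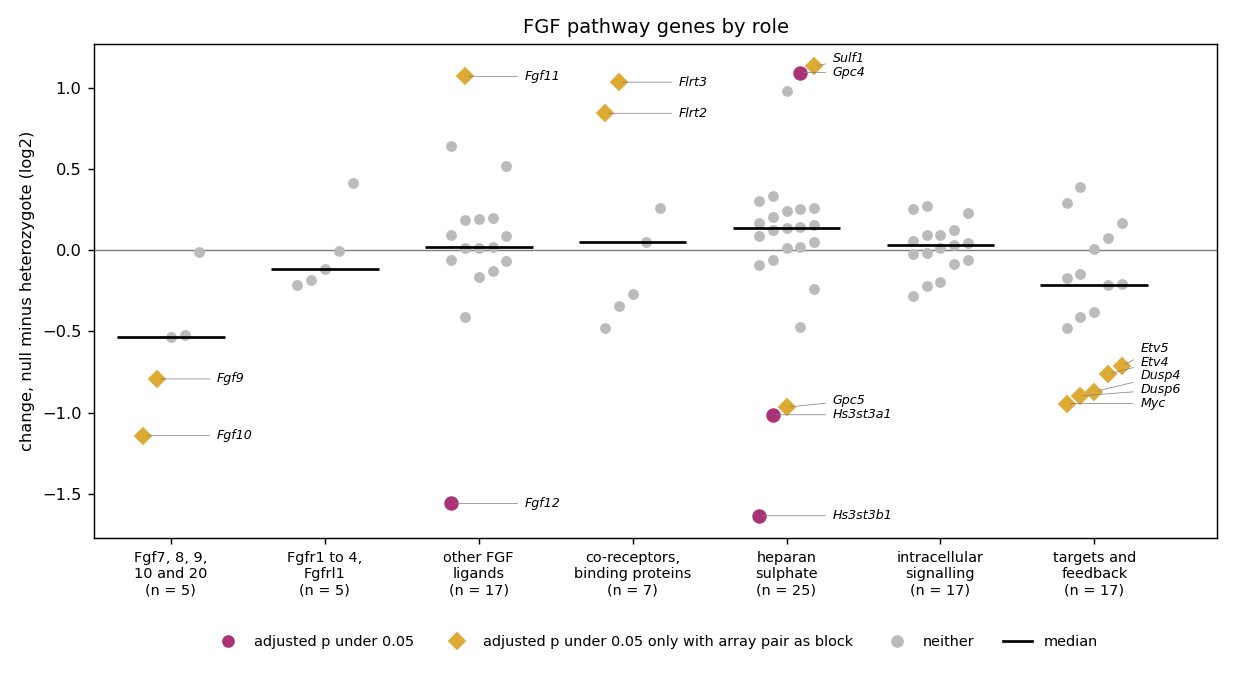
Change of each measured FGF gene by role, null minus heterozygote on the log2 scale; each point is a gene, the black line is the median, and colour marks whether limma's adjusted p over all genes was under 0.05 without or only with the array pair as a block. Fgf12, Hs3st3b1 and Hs3st3a1 fell and Gpc4 rose without a block, and the intracellular signalling genes lie near 0.

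Over the 5 lists, 4 of 83 measured genes passed in limma without a block (1 rose, 3 fell) and 14 with it (5 rose, 9 fell), where 1.39% and 4.53% of all genes did. Beside the genes above, the blocked calls included the glypican gene Gpc5 (limma, adjusted p = 0.0471), which was dim in both groups. The sulphatase gene Sulf1 was also called in the blocked fit (1.13 ± 0.18, SE, limma, adjusted p = 0.0347).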

How the data were processed

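The deposited table holds 1 log2 value per probe set and array; the submitters' processing notes list limma, affy and RMA, with neither version nor settings. RMA corrects background, equalizes distributions between arrays and summarizes probes, which hides differences in total RNA. Of 45101 probe sets, 34958 had exactly 1 gene symbol in the platform annotation, 932 had several and 9211 were not listed. Where a gene had several, the brightest on average was used. Null minus heterozygote was fitted in limma 3.58.1 (R 4.3.3; lmFit, eBayes, two-sided, no covariates, no filter), with Benjamini-Hochberg adjustment over 18194 genes or, for single probe sets, over 45037. The fit was tested on simulated data whose errors were independent between arrays, unlike those of the paired arrays here. There 50% of changes of 1 log2 unit and 100% of those of 2, 3 or 4 were called. Among unchanged genes 15 were called. Array pairs minimized the summed distance over 18 hybridization control probe sets (1.97 against 5.06 for the next of 15 matchings). After removal of genotype means, paired arrays correlated at 0.377 or more across genes, and other arrays of opposite genotype at 0.0972 or less. The blocked fit left fewer residual degrees of freedom than the 4 of the fit without a block. It was not run without moderation of the variances.

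The 10 genes, the lists, the tests and the pair block were chosen with earlier results of these data known. Named genes are the 10 members, pathway genes past the threshold, the 4 smallest p in each of 5 pathway lists, and the 3 most similar profiles of Fgf9 and Fgf10. Gpc5, Sulf1 and Etv4, and single probe sets of Fgf5, were named after their values were seen. Alternatives comprised robust and intensity-dependent priors, no moderation, median centring, a second quantile normalization, array weights, removal of genes under the 33rd percentile, the mean over probe sets, every probe set as a unit, the pair block and omission of each array.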

Additional observations from a re-analysis of the deposited data

How the results depend on the processing

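Fgf8, Fgf9, Fgf10, Fgf20, Fgfr3 and Fgfr4 kept their direction under all 16 alternatives. Fgf10 also passed with array weights (-1.37), with the array pair block (-1.14) and without heterozygote 1, and its change with 1 array left out ran from -1.37 to -0.90. Fgf9 also passed with the block (-0.79). Changes near 0 turned sign: Fgfrl1 was 0.0018 after renewed quantile normalization, 0.022 with array weights and 0.10 as the mean over probe sets. With 1 array left out, it ran from -0.15 to 0.16, Fgf7 from -0.15 to 0.070, Fgfr1 from -0.39 to 0.11 and Fgfr2 from -0.48 to 0.059. The cause was not tested. The number of members called was 0, but 1 with array weights, 2 with the block and 0 to 1 with 1 array left out. Pathway genes called were 4, but 0 without moderation, 9 with array weights, 8 as the mean over probe sets and 14 with the block. They were 1 to 4 with 1 array left out. With every probe set as a unit they were 2, counted at the brightest probe set of each gene. The dimmer Fgf5 probe set, which passed in that fit, is not in this count. Over all genes, 253 passed, but 3 without moderation, 551 with array weights, 824 with the block and 84 to 318 with 1 array left out. No paired analysis by replicate number was possible because the labels give the genotypes no shared numbers. 3 arrays a group and dim probe sets, as for Fgf7, limit what could be detected.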
